A study of Juglans regia with 21 samples.

Results

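Gene expression in the walnut pellicle, the thin coat that covers the kernel, was compared between 11 and 8 weeks after pollination. The samples were pellicle of Juglans regia cultivar Xinwen179, from plants grown in the field. The libraries of the 11-week stage (11W, n = 3) and of the 8-week stage (8W, n = 3) are 6 of the 21 libraries of a series of 7 stages, at 8, 9, 11, 13, 15, 17 and 19 weeks, with 3 libraries each. The labels name no treatment or genetic change, and both stages share cultivar, tissue and field and differ in age. The labels give neither the time of day of sampling nor whether replicate libraries came from separate trees, so p-values reflect variation among the libraries at hand, and that variation may be technical. Both stages are compared because LATE ELONGATED HYPOCOTYL (LHY), a clock gene, was low in both. All genes counted enter the comparison, named and grouped by product names carried over from the NR and Swiss-Prot protein databases.

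Seed coats grow from the integuments of the ovule and differentiate while embryo and storage tissue fill inside them. Cells at their surfaces deposit cutin and waxes, inner layers gather phenolics such as proanthocyanidins, and sugars pass through the coat to the embryo. In walnut the pellicle is known for its phenolics, which colour the coat and make it astringent. A circadian clock runs in most plant cells: LHY and several REVEILLE factors peak near dawn, and pseudo-response regulators (PRRs), TOC1 and the evening complex follow through the day and night.

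**Figure D1:**
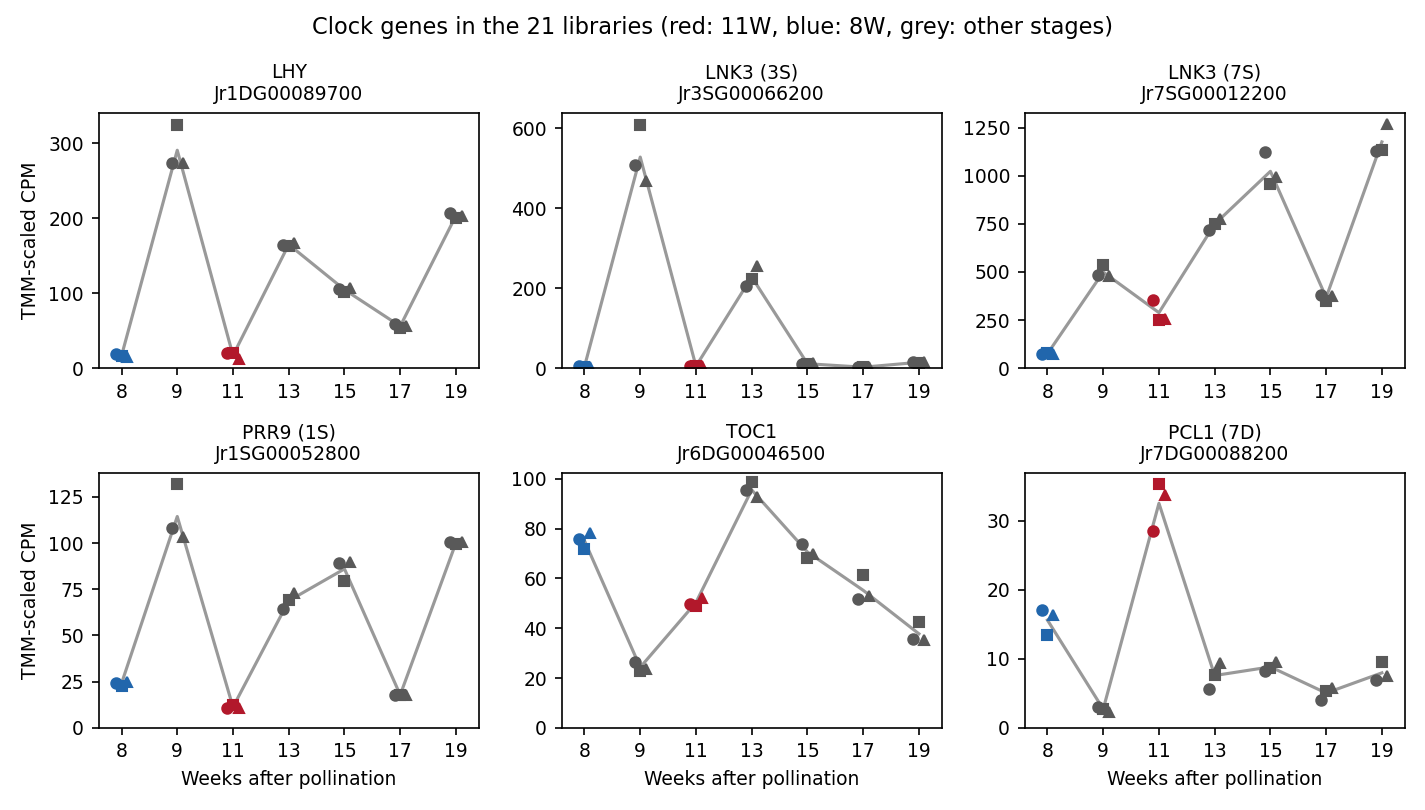
TMM-scaled counts per 1000000 reads (CPM) of 6 clock genes in each of the 21 libraries (vertical axes, linear) against weeks after pollination. Red points are 11W, blue points 8W and grey points the other stages (circle, square and triangle for replicates 1, 2 and 3), and the line joins stage means. LHY lies between 11.8 and 19.9 CPM at 11W and between 14.6 and 18.4 CPM at 8W, while LNK3 on 7S, PRR9, TOC1 and PCL1 do not overlap between the stages.

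Clock genes are described without a test, since LHY chose the stages. LHY (Jr1DG00089700, chromosome 1D, 13851926 to 13862037) had 19.8, 19.9 and 11.8 CPM in the 3 libraries at 11W, against 18.4, 16.9 and 14.6 CPM at 8W, and the stages overlapped. It had 274, 325 and 274 CPM at 9W, the stage between them in time. A second LHY copy, Jr1SG00053800, had 17, 16.5 and 14.9 CPM at 11W, against 11.4, 9.81 and 8.17 CPM at 8W, so that copy lay above its 8W libraries. The third, Jr1SG00053700, lay higher at 11W too, with 9.91, 6.89 and 8.2 CPM, against 2.06, 3.19 and 2.3 CPM at 8W.

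The rest of the clock was alike in some parts and unlike in others. REVEILLE 8 (Jr5DG00172600), an activator of afternoon and evening genes in Arabidopsis, had 38.5, 42.2 and 51.9 CPM at 11W, against 15.5, 15.4 and 14.9 CPM at 8W. LNK3 on 7S (Jr7SG00012200), a coactivator that works with REVEILLE factors, had 357, 251 and 258 CPM at 11W, against 73.7, 79.3 and 73.3 CPM at 8W. Its relative on 3S (Jr3SG00066200) was near its lowest in both stages, with 4.82, 5.64 and 5.07 CPM at 11W, against 5.16, 4.27 and 3.4 CPM at 8W. Both REVEILLE 8 and LNK3 on 7S lay above all 8W libraries at 11W, and LNK3 on 3S overlapped between the stages. TOC1 (Jr6DG00046500), a repressor of LHY, had 49.6, 49.1 and 52.3 CPM at 11W, against 75.7, 71.6 and 78.1 CPM at 8W. PRR9 on 1S (Jr1SG00052800), a repressor of the morning genes, had 10.5, 12.5 and 10.7 CPM at 11W, against 24.4, 22.7 and 25 CPM at 8W. PCL1 on 7D (Jr7DG00088200), the evening complex factor also called LUX, had 28.5, 35.3 and 33.7 CPM at 11W, against 17.1, 13.4 and 16.3 CPM at 8W. TOC1 and PRR9 thus lay lower and PCL1 higher at 11W in every library. EARLY FLOWERING 3 (Jr8DG00039900), the scaffold of the evening complex, had 167, 161 and 159 CPM at 11W, against 136, 147 and 143 CPM at 8W, with no overlap but a small gap. PRR7 (Jr1DG00283200) and PRR5 on 3S (Jr3SG00045800), daytime repressors of LHY, overlapped: PRR7 had 144, 145 and 154 CPM at 11W, against 163, 169 and 154 CPM at 8W, and PRR5 on 3S had 19.8, 25.9 and 26.2 CPM at 11W, against 25.4, 27.9 and 31.5 CPM at 8W. REVEILLE 1 on 2D (Jr2DG00070000), a dawn factor that links the clock to auxin in Arabidopsis, was higher, with 66.6, 37.1 and 40.7 CPM at 11W, against 27.6, 28.8 and 30.4 CPM at 8W. The cycling DOF factor Jr5DG00156200, a repressor of flowering genes in Arabidopsis, was higher at 11W without overlap, with 9.22, 9.25 and 8.4 CPM at 11W, against 3.46, 3.44 and 2.53 CPM at 8W. Of the clock genes given here, the stages thus overlapped in LHY on 1D, LNK3 on 3S, PRR7 and PRR5 on 3S only. The overlap of PRR7 was slight, as only 11W replicate 3 reached the lowest 8W library. This is not the full list of clock genes. Among those left out, LNK2 on 7S, REVEILLE 5 and REVEILLE 1 on 2S overlapped. PRR5 on 3D lay higher without overlap at 11W, and PRR9 on 1D and LNK2-like on 7D lay lower.

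The libraries held 14382867 to 14640374 reads at 11W and 14031513 to 15825523 reads at 8W, and 21707 of the 31425 genes counted had enough reads to test. In edgeR's quasi-likelihood test over all 21 libraries, 14229 of these genes (65.6%) changed between the stages at an adjusted p under 0.05. At 11W 7501 genes (34.6%) rose and 6728 (31.0%) fell, of which 3560 (16.4%) rose and 2503 (11.5%) fell at least 2-fold. The median log2 change of all genes tested was 0.03. Counts within each list below are to be read against 34.6% rising and 31.0% falling. Stages without overlap were common: 7603 genes (35.0%) had all 11W libraries above all 8W libraries, and 7152 (32.9%) had all below. A lack of overlap in a named gene is to be read against these shares. The 12 largest rises and 12 largest falls named below were picked for having none, so in them it is no finding. Library 11W replicate 1 stood apart from the other two 11W libraries. Among the 3560 genes that rose at least 2-fold, 878 (24.7%) were at least 1.5 times higher in that library than in the mean of the other two, against 2390 (11.0%) of all genes tested. Values are therefore given for each library, and where leaving out a single library moved a named gene's fold by over 1.5 times, the value without it is given. Each fit without a library repeated the filter on reads. The tested members of a list could thus change with the library, and a shift in its median can come from either.

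**Figure D2:**
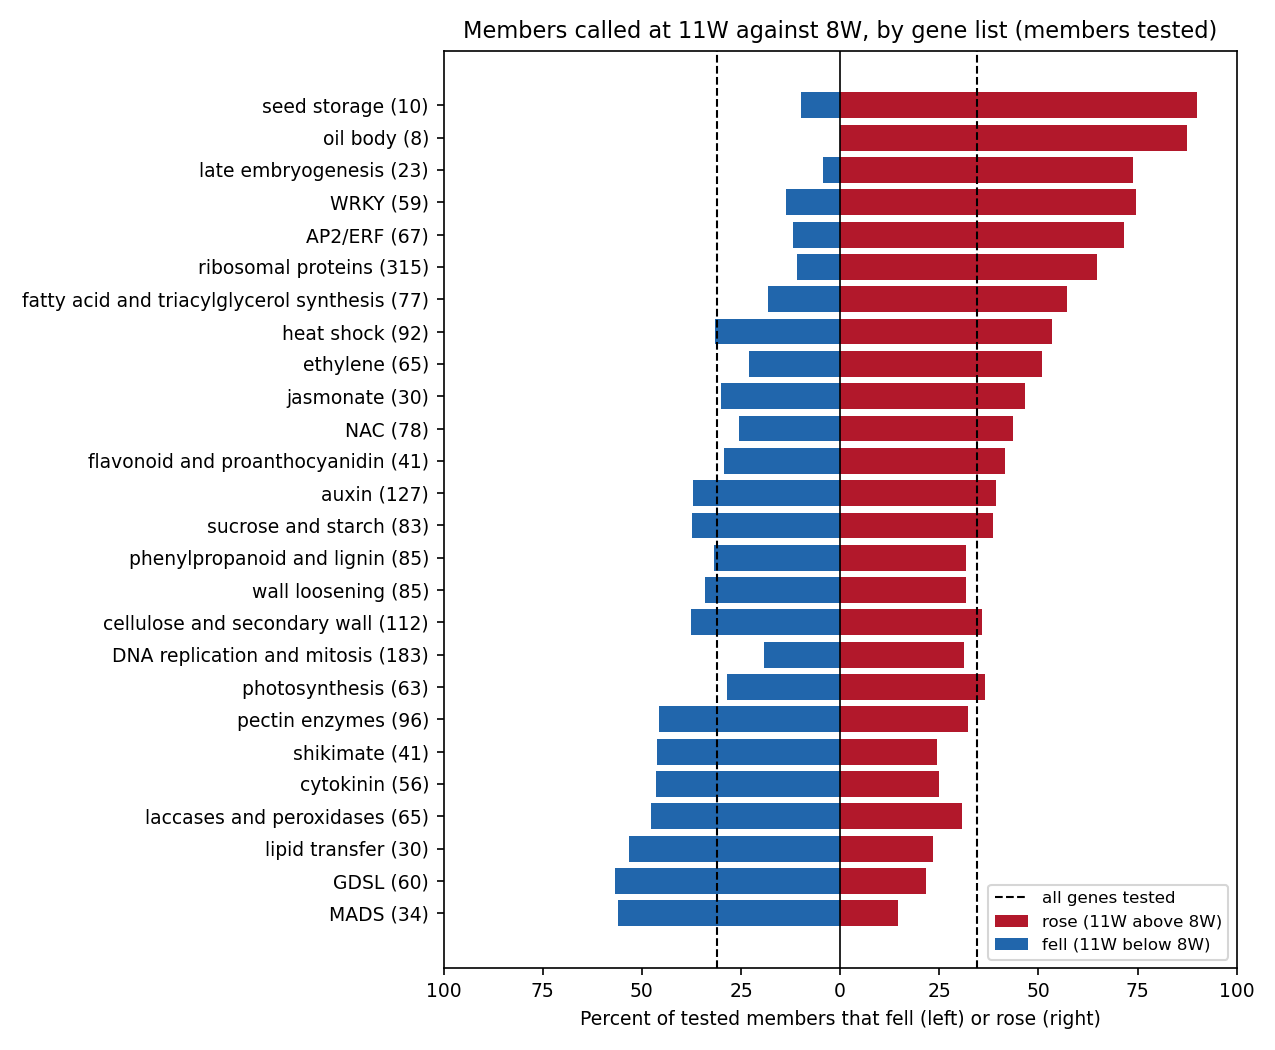
Share of the tested members of 26 gene lists that rose (red, to the right) or fell (blue, to the left) at 11W against 8W, at an edgeR adjusted p under 0.05, with the number of members tested in brackets. The dashed lines mark the shares over all 21707 genes tested, 34.6% rising and 31.0% falling; seed storage, oil body, WRKY and late embryogenesis genes lie far to the right of them, and MADS, GDSL and lipid transfer genes to the left.

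Transcripts for seed reserves were the most strongly raised group. Among 10 tested seed storage genes there were 9 rises and 1 fall, at a median log2 change of 7.99 (7.01 where a stage without reads is set to 3 reads per library). Their summed level was 26332, 14009 and 12271 CPM in the 3 libraries at 11W, against 295, 155 and 216 CPM at 8W, a 79.0-fold difference of means. Replicate 1 was the highest of the 11W libraries, and even the lowest of them lay far above 8W. Legumin B (Jr1DG00199500, chromosome 1D, 39393163 to 39395285), an 11S globulin stored in protein bodies, had 8696, 4695 and 3946 CPM at 11W, against 129, 35.2 and 64.6 CPM at 8W (log2 change 6.24 ± 0.69 SE, edgeR adjusted p = 1.21e-06). The vicilin precursor Jr1DG00211500, a 7S globulin, had 7182, 4108 and 3687 CPM at 11W, against 66.3, 18.8 and 40.9 CPM at 8W (log2 change 6.89 ± 0.47 SE, edgeR adjusted p = 2.85e-09). Both rose in every 11W library, and 8 of the 9 rising storage genes were at least 1.5 times higher in 11W replicate 1 than in the mean of the other two. Without that library the list's median log2 change was 7.15. Legumin B was highest at 8W in replicate 1, and its log2 change was 6.84 without it. The globulins with the largest rises were close to silent at 8W. The 11S globulin Jr2SG00188600 had 5452, 2188 and 1931 CPM at 11W, against 0.243, 0.319 and 0.576 CPM at 8W, an 8416-fold rise (edgeR adjusted p = 1.26e-07), and 5433-fold without 11W replicate 1. The seed storage gene Jr2DG00249800 had 3281, 1899 and 1511 CPM at 11W, against 0.607, 0.191 and 0.921 CPM at 8W (log2 change 11.88 ± 0.57 SE, edgeR adjusted p = 4.39e-11). Beside it on 2D, the 11S legumin Jr2DG00249900 had 1302, 874 and 940.2 CPM at 11W, against 0.243, 0.0637 and 0.288 CPM at 8W (log2 change 12.27 ± 0.87 SE, edgeR adjusted p = 6.62e-09). All 3 stayed under 1 CPM in every 8W library. The member that fell was the glutelin-type gene Jr3DG00195100, with 60.3, 75.9 and 77.5 CPM at 11W, against 96.8, 99.5 and 108 CPM at 8W (log2 change -0.51 ± 0.08 SE, edgeR adjusted p = 4.66e-06).

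Oil body genes moved with the globulins. Of 8 tested members 7 rose and the eighth did not pass, with a median log2 change of 5.91, and summed levels were 1756, 1130.0 and 1034 CPM at 11W, against 63.8, 50.3 and 54.7 CPM at 8W. Oleosin Jr2DG00039300, a coat protein of oil droplets, had 778, 478 and 394 CPM at 11W, against 18.7, 8.09 and 12.1 CPM at 8W (log2 change 5.4 ± 0.42 SE, edgeR adjusted p = 1.53e-08). A second oleosin, Jr4SG00041800, had 552, 393 and 383 CPM at 11W, against 3.22, 1.98 and 2.01 CPM at 8W (log2 change 7.52 ± 0.31 SE, edgeR adjusted p = 3.80e-12). The oil body-associated gene Jr1SG00075800 had 78.1, 5.51 and 19.3 CPM at 11W and no read at 8W, so that it was at least 188-fold higher (edgeR adjusted p = 6.30e-04). Neither oleosin overlapped between the stages, and Jr1SG00075800 was picked for a lack of overlap. Each of these 3 genes was highest in 11W replicate 1, by 6.31 times the mean of the other two for Jr1SG00075800. Without that library Jr1SG00075800 was at least 68.1-fold higher, and the list's median was 5.51. Of 77 tested genes of fatty acid and triacylglycerol synthesis 44 rose and 14 fell, at a median log2 change of 0.60 (0.48 without 11W replicate 1). Of the 23 that rose at least 2-fold, 17 were at least 1.5 times higher in that library than in the mean of the other 11W libraries. The acyl carrier protein desaturase Jr8SG00015800, which places a double bond in fatty acids, had 574, 408 and 302 CPM at 11W, against 250.5, 253 and 290.4 CPM at 8W (log2 change 0.69 ± 0.23 SE, edgeR adjusted p = 0.0159), and its call did not survive leaving out replicate 1 of either stage. The acyl carrier protein Jr1DG00170300, which carries the growing fatty acid chain, had 438, 304 and 263 CPM at 11W, against 115, 108 and 114 CPM at 8W (log2 change 1.57 ± 0.13 SE, edgeR adjusted p = 3.52e-09). The most abundant member went the other way: a stearoyl-acyl carrier protein desaturase (Jr1DG00212000), which makes oleic acid, had 792, 930.3 and 829 CPM at 11W, against 1617, 1588 and 1681 CPM at 8W (log2 change -0.94 ± 0.07 SE, edgeR adjusted p = 1.19e-10).

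Storage globulins, oleosins and late embryogenesis genes also mark embryo and kernel, which a pellicle sample can hold. Of all 13 storage genes, 2 had no read at 11W and 4 had none at 8W, and of all 9 oil body genes, 1 had none at 11W and 2 had none at 8W. Of all 24 late embryogenesis genes, 1 had none at 11W and 5 had none at 8W. Whether these transcripts came from pellicle cells or from kernel left on the coat was not tested, and a larger share of such cells and more RNA per cell cannot be told apart in bulk tissue. Flavonoid and proanthocyanidin genes, taken by product name and not by tissue, summed to 1280.1, 1314 and 1446 CPM at 11W, against 768, 794 and 776 CPM at 8W. Of all 71, 21 had no read at 11W and 21 had none at 8W. Among the 41 tested, 17 rose and 12 fell, at a median log2 change of 0.12.

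**Figure D3:**
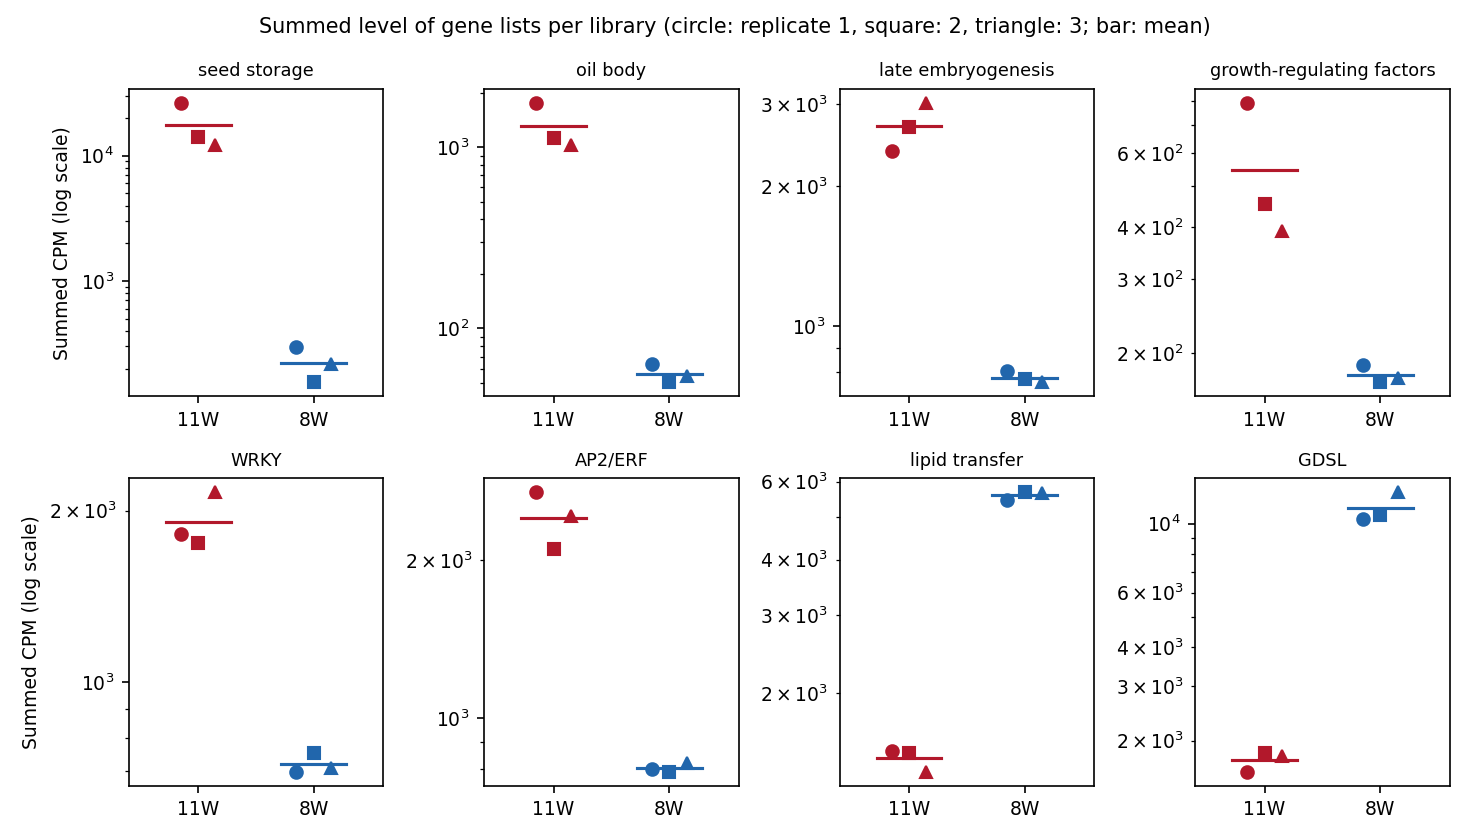
Summed TMM-scaled CPM of the members of 8 gene lists in each library of 11W (red, left) and 8W (blue, right), on logarithmic axes. Circle, square and triangle stand for replicates 1, 2 and 3, and the bar is the mean of 3 libraries. Replicate 1 is the highest 11W library for seed storage, oil body and growth-regulating factor genes, while lipid transfer and GDSL genes lie below all 8W libraries at 11W.

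Several single regulators also rose at 11W. The genes in this paragraph were named after their values were seen, except the YABBY gene Jr7SG00028600. The B3 factor annotated ABI3 (Jr2SG00103400), the class that switches on storage genes in Arabidopsis embryos, had 214, 111 and 106 CPM at 11W, against 0.547, 0.701 and 0.863 CPM at 8W (log2 change 7.65 ± 0.37 SE, edgeR adjusted p = 3.07e-11). VAL1-type B3 repressor Jr7SG00052600, which in Arabidopsis shuts the embryo programme down, rose as well, with 179.6, 130.2 and 126 CPM at 11W, against 20.9, 18.2 and 15 CPM at 8W (log2 change 3.01 ± 0.15 SE, edgeR adjusted p = 1.28e-12). Activator and repressor thus rose together, and both were highest in 11W replicate 1. Of 7 tested YABBY genes 5 rose and 1 fell, each at least 2-fold. The family summed to 204, 86.6 and 66.3 CPM at 11W, against 16.1, 18.5 and 14.2 CPM at 8W, so it was not silent at 8W. The YABBY factor Jr7SG00028600, of a family that marks the outer side of leaves, carpels and outer integuments, had 87.2, 37.2 and 28.1 CPM at 11W and no read at 8W (at least 279-fold higher, edgeR adjusted p = 3.27e-06). YABBY 4 (Jr6DG00155700) had 87.5, 30.8 and 25.8 CPM at 11W and a single read at 8W (2504-fold, 95% counting interval 449 to 98899, edgeR adjusted p = 3.78e-09). The WUSCHEL-related homeobox gene Jr7DG00099900 had 24.4, 6.37 and 8.6 CPM at 11W and no read at 8W (at least 72-fold higher, edgeR adjusted p = 3.58e-08). Library 11W replicate 1 was 2.67, 3.09 and 3.26 times the mean of the other two 11W libraries in these 3 genes, and all 11W libraries held reads of each. Without it the YABBY gene Jr7SG00028600 was at least 179-fold, YABBY 4 1476-fold and the WUSCHEL-related gene at least 41.1-fold higher. The single 8W read of YABBY 4 lay in replicate 3, without which that gene was at least 257-fold higher.

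Growth-regulating factors, which keep cells of young organs dividing, were picked out as a family after their values were seen. Of 14 tested members 11 rose and 1 fell, at a median log2 change of 1.58, and summed levels were 791, 455 and 392 CPM at 11W, against 188, 170.2 and 175 CPM at 8W. Growth-regulating factor 1 (Jr4DG00173100) had 226, 135 and 125 CPM at 11W, against 21.4, 14.3 and 16.1 CPM at 8W (log2 change 3.23 ± 0.21 SE, edgeR adjusted p = 5.87e-10). The gibberellin 20-oxidase Jr2DG00109700, which makes precursors of active gibberellin, had 76.9, 34.5 and 23.9 CPM at 11W and no read at 8W (at least 248-fold higher, edgeR adjusted p = 3.90e-07). The stages did not overlap in growth-regulating factor 1, and the oxidase was picked for a lack of overlap. Again replicate 1 was the highest 11W library in both genes. Without it the list's median was 1.28 and the oxidase was at least 160.4-fold higher, and 0 to 2 factors fell when single libraries were left out. The 12 largest rises by log2 change also held genes outside these families. The proline-rich protein Jr6DG00157500 had 612, 227 and 199 CPM at 11W and 1 read in all at 8W (18022-fold, 95% counting interval 3235 to 711834, edgeR adjusted p = 1.68e-08). Galactinol synthase 1 (Jr4SG00086300), which starts the raffinose sugars of drying seeds, had 30.1, 13.8 and 9.73 CPM at 11W and no read at 8W (at least 98.2-fold higher, edgeR adjusted p = 1.36e-08). The plastid pore protein OEP16-2 (Jr1DG00101700) had 159, 68.9 and 64.6 CPM at 11W and 1 read in all at 8W (5076-fold, 95% counting interval 911 to 200477, edgeR adjusted p = 3.87e-10). In these 3, replicate 1 was again the highest 11W library, and without it the proline-rich gene was 11087-fold and galactinol synthase 1 at least 64.6-fold higher. The single 8W reads lay in 8W replicate 3, without which the proline-rich gene was at least 1852-fold and OEP16-2 at least 522-fold higher. A glutathione S-transferase, Jr2SG00047900, of a family that joins glutathione to toxic or reactive compounds, had 177, 52 and 53.3 CPM at 11W and no read at 8W (at least 518-fold higher, edgeR adjusted p = 3.38e-08). The AP2-type factor Jr1DG00300400 had 25.4, 8.73 and 9.27 CPM at 11W and no read at 8W (at least 79.5-fold higher, edgeR adjusted p = 2.02e-07). The last of the 12, a protein of the UPF0098 family (Jr5SG00171400), had 78.2, 32.2 and 26.5 CPM at 11W and no read at 8W (at least 251-fold higher, edgeR adjusted p = 7.50e-07). Without 11W replicate 1 the transferase was at least 289-fold, the AP2-type factor at least 49.4-fold and the UPF0098 gene at least 161-fold higher.

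Aquaporins, which let water and small solutes through membranes, rose in 10 of 24 tested members and fell in 7, at a median log2 change of 0.63 and sums of 3001, 1815 and 1695 CPM at 11W, against 1395, 1392 and 1617 CPM at 8W. TIP1;3 (Jr7DG00097000), a vacuolar membrane channel, had 1118, 435 and 385 CPM at 11W, against 175, 124 and 156 CPM at 8W (log2 change 2.09 ± 0.32 SE, edgeR adjusted p = 3.59e-05). TIP3-2 (Jr8SG00076100), of the group found on protein storage vacuoles in seeds, had 247, 107 and 114 CPM at 11W, against 4.43, 2.36 and 3.8 CPM at 8W (log2 change 5.45 ± 0.46 SE, edgeR adjusted p = 5.28e-08). TIP2;1 (Jr1SG00147000) fell, with 171, 138 and 176 CPM at 11W, against 241, 265 and 319.8 CPM at 8W (log2 change -0.77 ± 0.16 SE, edgeR adjusted p = 4.05e-04). The rising channels were 2.73 and 2.23 times higher in 11W replicate 1 than in the mean of the other two, and none of the 3 overlapped with 8W. Without that library the log2 change of TIP1;3 was 1.42, and without 8W replicate 2 the median of the aquaporins was 0.33.

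**Figure D4:**
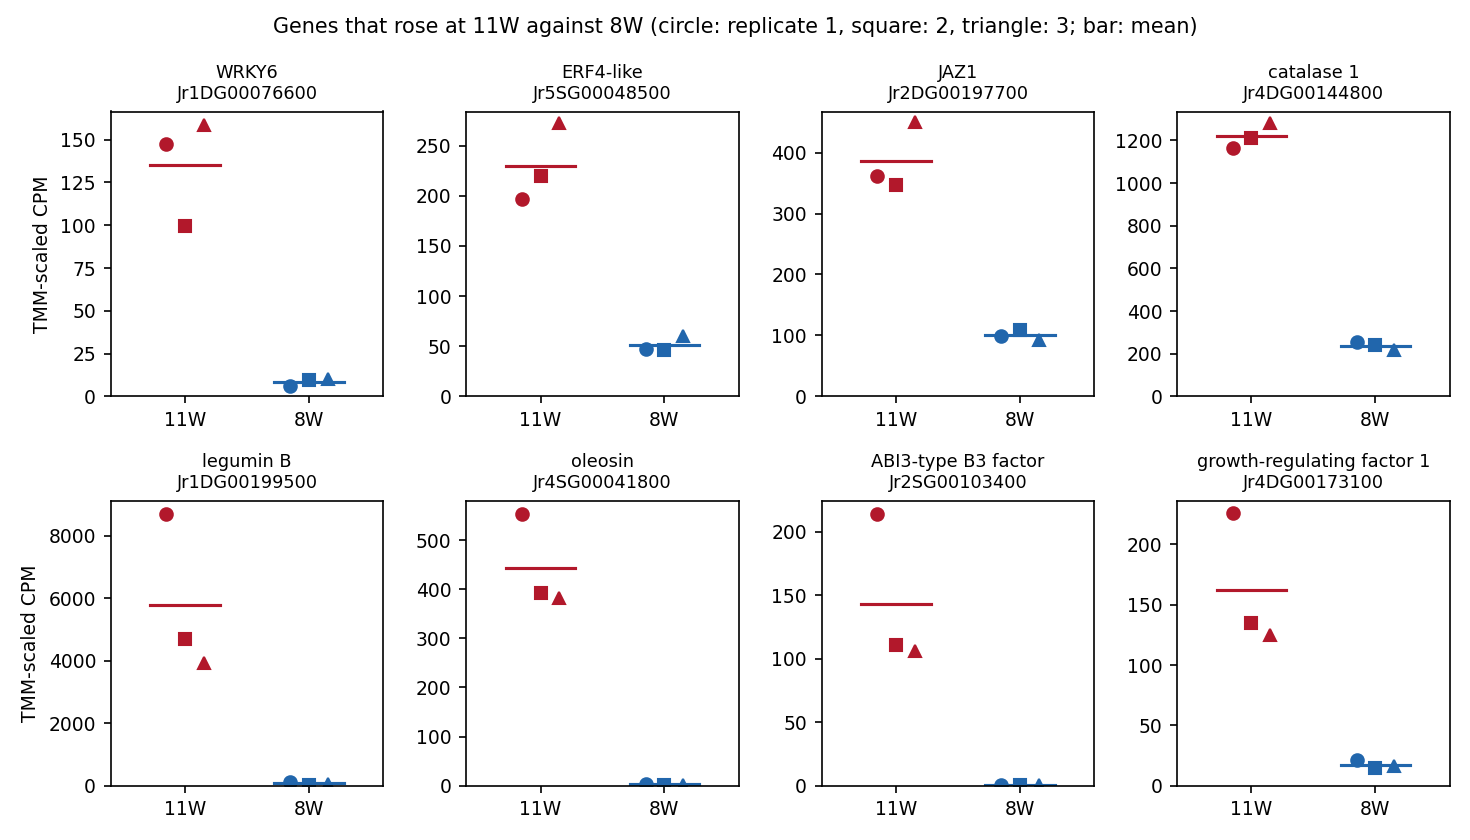
TMM-scaled CPM of 8 genes that rose at 11W (red, left) against 8W (blue, right), on linear axes from 0; circle, square and triangle stand for replicates 1, 2 and 3 and the bar is the mean. In the upper row (WRKY6, ERF4-like, JAZ1, catalase 1) replicate 1 lies within or near the other 11W libraries, and in the lower row (legumin B, oleosin, ABI3-type factor, growth-regulating factor 1) replicate 1 is the highest.

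Another family of regulators rose more evenly over the 11W libraries. Of the 32 WRKY genes that rose at least 2-fold, 2 were at least 1.5 times higher in 11W replicate 1 than in the mean of the other 11W libraries. WRKY factors, which act in defence, wounding and senescence and in some species in seed coats, rose in 44 of 59 tested members and fell in 8, at a median log2 change of 2.39 (1.89 with stages without reads set to 3 reads per library). Summed WRKY levels were 1817, 1754 and 2155 CPM at 11W, against 697, 751 and 708 CPM at 8W. WRKY33 (Jr7DG00064100), a defence regulator in Arabidopsis, had 219, 192 and 252 CPM at 11W, against 32, 38 and 39.8 CPM at 8W (log2 change 2.59 ± 0.12 SE, edgeR adjusted p = 1.68e-14). WRKY6 (Jr1DG00076600), tied to senescence and phosphate use in Arabidopsis, had 147, 99.8 and 159 CPM at 11W, against 6.25, 9.37 and 9.96 CPM at 8W (log2 change 3.99 ± 0.36 SE, edgeR adjusted p = 8.41e-08). For both genes every 11W library exceeded every 8W library, with replicate 3 the highest at 11W. Only 1 of the 8 falls reached 2-fold, and WRKY2 (Jr6DG00208800), the WRKY gene with the most reads, had 118, 116 and 127 CPM at 11W, against 157, 165 and 151 CPM at 8W (log2 change -0.39 ± 0.06 SE, edgeR adjusted p = 2.18e-06).

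AP2/ERF factors, which carry ethylene, drought and wound signals, rose in 48 of 67 tested members and fell in 8, at a median log2 change of 1.87. Of the 40 that rose at least 2-fold, 13 were at least 1.5 times higher in 11W replicate 1 than in the mean of the other 11W libraries. The ERF4-like gene Jr5SG00048500, a repressor of ethylene responses in Arabidopsis, had 196, 219 and 273 CPM at 11W, against 47.2, 46.3 and 60.1 CPM at 8W (log2 change 2.16 ± 0.27 SE, edgeR adjusted p = 3.18e-06). AIL6 (Jr4DG00048100), an AP2 factor of dividing tissue in young organs, had 244, 119 and 128 CPM at 11W, against 39, 34 and 27.4 CPM at 8W (log2 change 2.29 ± 0.24 SE, edgeR adjusted p = 4.98e-07). The first was lowest and the second highest in 11W replicate 1, and neither overlapped with 8W. Among 65 tested genes of ethylene synthesis and response 33 rose and 15 fell, at a median log2 change of 0.45. Ethylene response factor 1 (Jr4DG00122900) had 848, 655 and 801 CPM at 11W, against 206, 193 and 226 CPM at 8W (log2 change 1.88 ± 0.10 SE, edgeR adjusted p = 1.53e-13). The gene with the most reads in that list fell: Jr1SG00133300, annotated as an ethylene transcription factor, had 907, 1173 and 1181 CPM at 11W, against 2169, 2209 and 2267 CPM at 8W (log2 change -1.03 ± 0.08 SE, edgeR adjusted p = 1.54e-10). 1-aminocyclopropane-1-carboxylate oxidase Jr2SG00187000, the last enzyme of ethylene synthesis, fell too, with 337, 511 and 499 CPM at 11W, against 742, 779.7 and 704 CPM at 8W (log2 change -0.73 ± 0.11 SE, edgeR adjusted p = 2.79e-06).

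Jasmonate genes rose in 14 of 30 tested members and fell in 9, at a median log2 change of 0.51 (0.79 when 11W replicate 2 was left out, 0.84 when 11W replicate 3 was) and summed levels of 2152, 2254 and 2700.3 CPM at 11W, against 1013, 1057 and 1000.3 CPM at 8W. Over all fits without 1 library, in which the members tested could differ, the median ran over 0.53 to 0.84. With the members kept, it was 0.41 without 11W replicate 1. TIFY6B (Jr3SG00057100) and JAZ1 (Jr2DG00197700) belong to the JAZ repressors, which jasmonate both degrades and induces. TIFY6B had 648, 747 and 827 CPM at 11W, against 365, 382 and 369 CPM at 8W (log2 change 0.99 ± 0.09 SE, edgeR adjusted p = 5.26e-10). JAZ1 had 361, 347 and 449 CPM at 11W, against 98.4, 109.7 and 93.1 CPM at 8W (log2 change 1.94 ± 0.12 SE, edgeR adjusted p = 2.63e-12). MYC2 (Jr1DG00080600), the bHLH factor that JAZ proteins hold inactive, had 164, 114 and 157 CPM at 11W, against 29, 30.5 and 32 CPM at 8W (log2 change 2.25 ± 0.15 SE, edgeR adjusted p = 2.11e-10). Another bHLH factor, bHLH74-like (Jr4SG00051200), had 232, 128 and 121 CPM at 11W, against 25.3, 17.9 and 22.5 CPM at 8W (log2 change 2.87 ± 0.23 SE, edgeR adjusted p = 1.34e-08), although bHLH genes as a list rose in 32 and fell in 27 of 92 (median -0.01). TIFY6B, JAZ1 and MYC2 were higher in each 11W library than in any 8W library, whereas the jasmonate receptor COI1 (Jr1DG00296400) fell, with 35.7, 53 and 47.6 CPM at 11W, against 116, 107 and 102 CPM at 8W (log2 change -1.25 ± 0.11 SE, edgeR adjusted p = 9.22e-10).

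MYB and NAC factors moved in both directions. MYB genes rose in 39% and fell in 30.5% of tested members, near the shares over all genes. NAC genes held more rises (43.6%) and fewer falls (25.6%) than those shares. Of 154 tested MYB genes 60 rose and 47 fell (median log2 change 0.14), and of 78 NAC genes 34 rose and 20 fell (median 0.17). MYB44-like (Jr8DG00053300), a stress regulator in Arabidopsis, had 592, 523 and 616 CPM at 11W, against 153, 160.4 and 201 CPM at 8W (log2 change 1.75 ± 0.13 SE, edgeR adjusted p = 1.44e-10). The fall with the most reads was small: an L10-interacting MYB protein (Jr8DG00139800) had 62.7, 70.6 and 75.9 CPM at 11W, against 82.6, 83.8 and 81.7 CPM at 8W (log2 change -0.25 ± 0.07 SE, edgeR adjusted p = 0.00403). MYB114-like (Jr6DG00081200), of the clade that drives anthocyanin genes in Arabidopsis, was nearly lost, with 1.93, 2.03 and 2.0 CPM at 11W, against 103, 109.6 and 104 CPM at 8W (log2 change -5.73 ± 0.30 SE, edgeR adjusted p = 5.00e-12). NAC35 (Jr3DG00093600), the most abundant NAC gene, had 226, 253 and 323 CPM at 11W, against 676, 735 and 703 CPM at 8W (log2 change -1.4 ± 0.10 SE, edgeR adjusted p = 1.05e-11). Of the genes annotated NAC21, the one on 6D (Jr6DG00175900) rose and the one on 6S (Jr6SG00122900) fell. The 6D copy had 336, 439 and 453 CPM at 11W, against 236, 232 and 243 CPM at 8W (log2 change 0.79 ± 0.09 SE, edgeR adjusted p = 6.15e-08). The 6S copy had 144, 176 and 219.5 CPM at 11W, against 373, 355 and 348 CPM at 8W (log2 change -0.99 ± 0.11 SE, edgeR adjusted p = 2.16e-08).

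Genes of late embryogenesis proteins rose in most tested members. Of 23 tested late embryogenesis genes, whose products shield proteins and membranes in drying tissue, 17 rose and 1 fell, at a median log2 change of 2.27. Dehydrin ERD14 (Jr4DG00147900) had 1193, 1385 and 1511 CPM at 11W, against 315, 293 and 296 CPM at 8W (log2 change 2.18 ± 0.09 SE, edgeR adjusted p = 3.70e-16). Dehydrin 2 (Jr4SG00068600) had 481, 490.0 and 615 CPM at 11W, against 135, 123 and 121 CPM at 8W (log2 change 2.07 ± 0.12 SE, edgeR adjusted p = 1.06e-12). Neither overlapped between the stages, and both were lowest in replicate 1 at 11W, unlike the storage genes. A run of 5 late embryogenesis genes on chromosome 4S, 24705541 to 24814402, rose as a whole, with summed levels of 152, 154 and 181 CPM at 11W, against 1.58, 2.49 and 0.806 CPM at 8W. The 1 fall, Lea14 (Jr1DG00216100), was slight, with 184, 221 and 221 CPM at 11W, against 238, 241 and 221 CPM at 8W (log2 change -0.16 ± 0.07 SE, edgeR adjusted p = 0.0364). Its highest 11W and lowest 8W libraries were nearly equal, and its call was lost without 11W replicate 1, 8W replicate 1 or 8W replicate 2 (log2 change -0.22 to -0.10, edgeR adjusted p up to 0.18).

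Catalase isozyme 1 (Jr4DG00144800), which breaks down hydrogen peroxide and was the antioxidant gene with the most reads, had 1165, 1209 and 1282 CPM at 11W, against 255, 240.1 and 219 CPM at 8W (log2 change 2.36 ± 0.08 SE, edgeR adjusted p = 5.42e-17). Cytosolic ascorbate peroxidase (Jr7DG00101600), another peroxide-removing enzyme, fell, with 456, 476 and 484 CPM at 11W, against 714, 778 and 714 CPM at 8W (log2 change -0.64 ± 0.07 SE, edgeR adjusted p = 1.75e-08). The stages did not overlap in either gene. Catalase isozyme 1 heads a run of 3 catalase genes on chromosome 4D, 26590472 to 26608946, all of which rose, with 1176, 1224 and 1298 CPM in sum at 11W, against 257, 242 and 221 CPM at 8W. Over the whole list 22 of 46 tested antioxidant genes rose and 16 fell (median log2 change -0.01). Heat shock genes rose in 49 of 92 tested members and fell in 29, at a median log2 change of 0.55 (0.35 without 8W replicate 1). The HSP90 gene Jr6SG00140000, a chaperone of signalling proteins, had 530.2, 471 and 399.8 CPM at 11W, against 280.1, 283 and 266 CPM at 8W (log2 change 0.76 ± 0.09 SE, edgeR adjusted p = 5.57e-08). On chromosome 7D, 7754370 to 7908275, 11 genes for small heat shock proteins lie side by side, and each of the 10 with enough reads to test rose. Their summed level was 1217, 991 and 759.5 CPM at 11W, against 176, 133 and 161 CPM at 8W, with no overlap. The member with the most reads lies elsewhere: small heat shock protein 17.3 (Jr8DG00091200) had 522, 455 and 349.6 CPM at 11W, against 677, 659 and 671 CPM at 8W (log2 change -0.6 ± 0.23 SE, edgeR adjusted p = 0.0329). Its call was lost when any single library of the 6 but 11W replicate 1 was left out (log2 change -0.75 to -0.47, edgeR adjusted p up to 0.128). Neighbouring copies of such genes can share reads, and how the authors counted reads with several matches is not given in the sources used here.

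Among the gene lists, lipid-transfer and GDSL genes had the lowest median log2 changes. Lipid-transfer proteins, small secreted proteins that bind lipids and are thought to help build the cuticle, fell in 16 of 30 tested members and rose in 7, at a median log2 change of -1.15. Their summed level was 1483, 1461 and 1328 CPM at 11W, against 5469, 5681 and 5671 CPM at 8W. A run of 6 lipid-transfer genes on chromosome 5D, 9034816 to 9131629, had 18, 23.6 and 16.2 CPM in sum at 11W, against 2615, 2701 and 2464 CPM at 8W, a 135-fold lower mean, and all 6 fell. The run was thus nearly lost in every 11W library. Jr5DG00092500 (chromosome 5D, 9038433 to 9038666) had 0.482, 0.525 and 0.133 CPM at 11W, against 596, 649 and 598 CPM at 8W (log2 change -10.63 ± 0.28 SE, edgeR adjusted p = 6.81e-16). Jr5DG00093200 had 1.86, 2.69 and 2.47 CPM at 11W, against 768, 787 and 747 CPM at 8W (log2 change -8.35 ± 0.23 SE, edgeR adjusted p = 1.15e-15). Jr5DG00092700 had no read at 11W and 136, 136 and 83.8 CPM at 8W, at least 589.6-fold lower (edgeR adjusted p = 1.58e-07). Jr5DG00093300 had 0.413, 0.263 and 0 CPM at 11W, against 357, 377 and 275 CPM at 8W (log2 change -10.5 ± 0.35 SE, edgeR adjusted p = 5.82e-14), with a log2 change of -11.24 without 11W replicate 1. At 9W the run was still at 1955, 1678 and 1845 CPM, so most of its fall was seen between 9W and 11W. A second run on chromosome 5D, 33183456 to 33207808, fell in its 3 members, with 519, 582 and 468 CPM in sum at 11W, against 1606, 1762 and 1911 CPM at 8W. It holds the list's most abundant gene, Jr5DG00207800, which had 193, 222 and 164 CPM at 11W, against 827, 876 and 999.8 CPM at 8W (log2 change -2.22 ± 0.17 SE, edgeR adjusted p = 1.96e-09). The lipid-transfer gene Jr3DG00097600, whose product is anchored to the membrane, rose instead, with 319, 213 and 190.2 CPM at 11W, against 60.4, 57.1 and 48.3 CPM at 8W (log2 change 2.12 ± 0.19 SE, edgeR adjusted p = 4.36e-08).

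GDSL esterases and lipases, a family that includes the cutin synthases, fell in 34 of 60 tested members and rose in 13, at a median log2 change of -0.99. Summed levels were 1589, 1829 and 1779.5 CPM at 11W, against 10357, 10658 and 12626 CPM at 8W, and 1 gene made most of the difference. That gene, Jr1DG00225300 (chromosome 1D, 42662150 to 42668732), had 865, 1132 and 1107 CPM at 11W, against 6846, 7539 and 9229 CPM at 8W (log2 change -2.93 ± 0.11 SE, edgeR adjusted p = 2.53e-16). Next in abundance, Jr2DG00016400 had 43.8, 58.9 and 45.5 CPM at 11W, against 1353, 1124 and 1265 CPM at 8W (log2 change -4.66 ± 0.24 SE, edgeR adjusted p = 7.66e-11). Both were lower in each 11W library than in any 8W library. Among 50 tested genes of cutin, suberin and wax 23 fell and 12 rose, with a median log2 change of -0.28, which became -0.16 when any 1 of the 8W libraries was left out. HOTHEAD (Jr1DG00236400), needed in Arabidopsis to make cutin acids and keep organs apart, had 109, 153 and 140.0 CPM at 11W, against 1059, 1105 and 1040.5 CPM at 8W (log2 change -2.99 ± 0.10 SE, edgeR adjusted p = 1.01e-17). One long-chain acyl-CoA synthetase, an enzyme that activates fatty acids, fell and another rose. The LACS2-like gene Jr3SG00147100 had 300.1, 374 and 377 CPM at 11W, against 553, 603 and 695 CPM at 8W (log2 change -0.82 ± 0.10 SE, edgeR adjusted p = 7.08e-08). The LACS1-like gene Jr4DG00129500 had 447, 598 and 616 CPM at 11W, against 118, 115 and 123 CPM at 8W (log2 change 2.22 ± 0.13 SE, edgeR adjusted p = 6.52e-12).

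**Figure D5:**
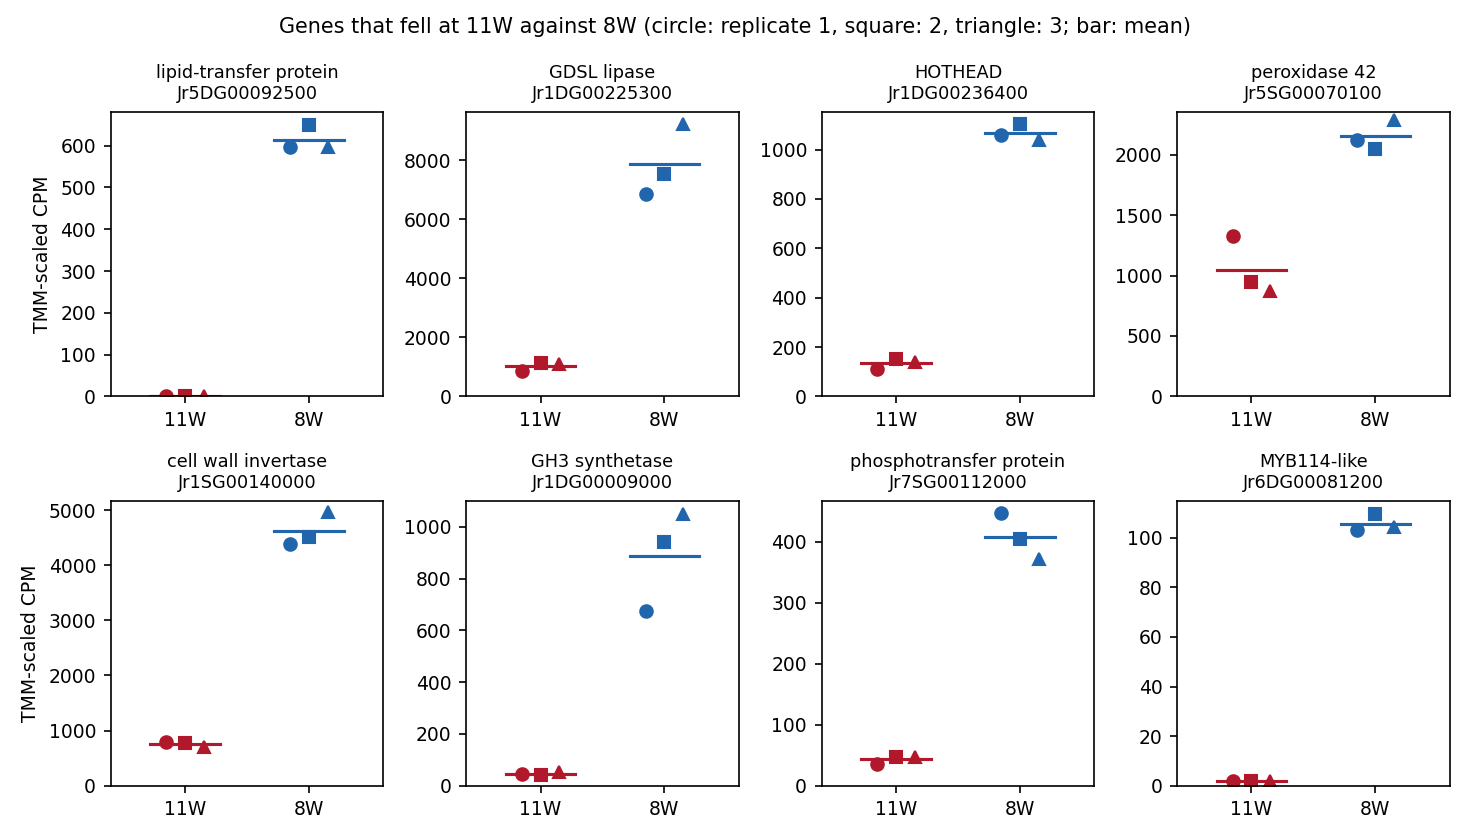
TMM-scaled CPM of 8 genes that fell at 11W (red, left) against 8W (blue, right), on linear axes from 0; circle, square and triangle stand for replicates 1, 2 and 3 and the bar is the mean. No library of 11W reaches the lowest 8W library in any of the 8 genes, and the lipid-transfer gene lies below 1 CPM in all 3 libraries of 11W.

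Among lists of phenolic metabolism, phenylpropanoid and flavonoid genes moved in both directions. Shikimate genes, and laccases and peroxidases, held more falls than rises. Of 85 tested phenylpropanoid and lignin genes 27 rose and 27 fell (median log2 change -0.10). The shikimate pathway, which supplies phenylalanine and gallic acid precursors, fell in 19 of 41 tested members and rose in 10 (median -0.26, or -0.41 without 11W replicate 1). A DAHP synthase, the entry enzyme of that pathway (Jr2SG00099100), had 23.1, 27.8 and 32.5 CPM at 11W, against 121, 130.0 and 111 CPM at 8W (log2 change -2.12 ± 0.15 SE, edgeR adjusted p = 2.88e-10). Chorismate mutase (Jr2DG00018700), the branch towards phenylalanine and tyrosine, rose, with 222, 243 and 308 CPM at 11W, against 125, 129 and 136 CPM at 8W (log2 change 0.99 ± 0.09 SE, edgeR adjusted p = 5.87e-10). Neither gene overlapped between the stages. A run of 3 shikimate-pathway genes on chromosome 4D, 1236572 to 1277911, fell in all 3 members, with 16.1, 19.5 and 18.2 CPM in sum at 11W, against 144, 144 and 148 CPM at 8W.

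Flavonoid and proanthocyanidin enzymes rose in 17 of 41 tested members and fell in 12 (median log2 change 0.12). Flavonoid 3'-monooxygenase (Jr6DG00050300), which sets the hydroxylation of the B ring, had 288, 209 and 281 CPM at 11W, against 114, 117 and 104 CPM at 8W (log2 change 1.21 ± 0.15 SE, edgeR adjusted p = 1.29e-06). Chalcone synthase Jr1SG00082400, the first enzyme of the pathway, had 136, 163 and 166 CPM at 11W, against 30.2, 25.4 and 23 CPM at 8W (log2 change 2.57 ± 0.27 SE, edgeR adjusted p = 4.84e-07). Dihydroflavonol reductase Jr4DG00161700, at the branch to anthocyanidins, fell, with 24.5, 27.2 and 27.3 CPM at 11W, against 41.6, 45.8 and 42.5 CPM at 8W (log2 change -0.72 ± 0.09 SE, edgeR adjusted p = 2.16e-07). Leucoanthocyanidin reductase Jr8SG00081600, which makes catechin units of proanthocyanidins, fell as well, with 17.8, 24 and 23.4 CPM at 11W, against 31.6, 35.2 and 38.4 CPM at 8W (log2 change -0.69 ± 0.20 SE, edgeR adjusted p = 0.00563). The stages did not overlap in any of these 4 genes. Genes for glycosyl and acyl transfer rose in 27 of 77 tested members and fell in 30 (median 0.05). Serine carboxypeptidase-like genes, a family with galloyl transferases among its members, fell as 2 runs: 4 of 4 tested genes on chromosome 3D, 1635435 to 1782408, and 3 of 3 on chromosome 8D, 31240843 to 31266810. The first run had 16.6, 21.5 and 22.5 CPM in sum at 11W, against 130.3, 144 and 121 CPM at 8W. The second had 5.64, 8.47 and 9.13 CPM in sum at 11W, against 122, 117 and 103 CPM at 8W.

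Laccases and class III peroxidases, which join phenolics into polymers in the wall, fell in 31 of 65 tested members and rose in 20, at a median log2 change of -0.83. Peroxidase 42 (Jr5SG00070100) had 1328, 945 and 876 CPM at 11W, against 2121, 2048 and 2286 CPM at 8W (log2 change -1.04 ± 0.11 SE, edgeR adjusted p = 1.08e-08). Laccase-14-like (Jr8DG00008800) had no read at 11W and 14.3, 16.3 and 15.7 CPM at 8W, at least 76.5-fold lower (edgeR adjusted p = 4.12e-11). Peroxidase 63 (Jr2DG00031100) rose instead, with 273, 183 and 224 CPM at 11W, against 39.1, 35.8 and 46.8 CPM at 8W (log2 change 2.48 ± 0.17 SE, edgeR adjusted p = 6.57e-10). The stages did not overlap in these 3 genes. Laccase-14-like lies in a run of 6 laccase genes on chromosome 8D, 1090541 to 1195477, of which 3 of 4 tested fell, with 13.1, 17.5 and 15.3 CPM in sum at 11W, against 221, 238 and 217 CPM at 8W. Peroxidase 29 (Jr1DG00103600) was among the 12 largest falls, with 0, 0.263 and 0 CPM at 11W, against 30.6, 35.9 and 39.4 CPM at 8W (log2 change -8.5 ± 0.41 SE, edgeR adjusted p = 5.52e-11). Its reads at 11W were in replicate 2, without which it was at least 174-fold lower. Both polyphenol oxidase genes, whose products brown phenolics, were low, and they moved apart. Jr5DG00051800 had 2.68, 5.58 and 5.0 CPM at 11W, against 0.121, 0.382 and 0.115 CPM at 8W (log2 change 4.4 ± 0.37 SE, edgeR adjusted p = 2.67e-10, or a log2 change of 5.13 without 8W replicate 2). Jr5DG00051600 had 0.413, 0.394 and 0.4 CPM at 11W, against 1.64, 1.72 and 1.27 CPM at 8W (log2 change -1.91 ± 0.49 SE, edgeR adjusted p = 0.00154).

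Wall genes were split between rises and falls. Cellulose and secondary wall genes rose in 40 and fell in 42 of 112 tested members (median log2 change -0.05), and wall-loosening genes rose in 27 and fell in 29 of 85 (median -0.12). Cellulose synthase 2 (Jr2DG00117600) had 657, 639.7 and 740.0 CPM at 11W, against 149.6, 147 and 166 CPM at 8W (log2 change 2.14 ± 0.08 SE, edgeR adjusted p = 2.69e-16). COBRA-like 7 (Jr1DG00161100), of a family that helps lay down cellulose, had 357, 281 and 403 CPM at 11W, against 18.9, 15.8 and 19.3 CPM at 8W (log2 change 4.26 ± 0.25 SE, edgeR adjusted p = 2.66e-10). All 11W libraries were above all 8W libraries in both genes. On chromosome 4D, 31626002 to 31644296, all 4 of a run of xyloglucan endotransglycosylase genes, which cut and rejoin xyloglucan, rose, with 1643, 1223 and 1667 CPM in sum at 11W, against 62.3, 59.1 and 63.2 CPM at 8W. The gene of this family with the most reads among the rises lies elsewhere, Jr5DG00141400, with 467, 399 and 585 CPM at 11W, against 32.7, 26.7 and 37.5 CPM at 8W (log2 change 3.9 ± 0.24 SE, edgeR adjusted p = 4.27e-10). Xyloglucan endotransglycosylase 6 (Jr4DG00188600) in the run on 4D had 356, 397 and 479 CPM at 11W, against 44.3, 39.8 and 43 CPM at 8W (log2 change 3.28 ± 0.17 SE, edgeR adjusted p = 1.90e-11). A gene of the same family on 2D (Jr2DG00150700) fell, with 179, 111 and 114 CPM at 11W, against 508, 521 and 607 CPM at 8W (log2 change -2.02 ± 0.26 SE, edgeR adjusted p = 6.10e-06). Pectin enzymes fell in 44 of 96 tested members and rose in 31 (median -0.34, or -0.17 without 11W replicate 3). Galacturonosyltransferase 8 (Jr7SG00041400), which builds the pectin backbone, rose, with 387, 355 and 393 CPM at 11W, against 85.2, 92.1 and 95 CPM at 8W (log2 change 2.06 ± 0.11 SE, edgeR adjusted p = 1.01e-13). Pectinesterase Jr2DG00116300, which removes methyl groups from it, fell, with 173, 119 and 174 CPM at 11W, against 274, 267 and 275 CPM at 8W (log2 change -0.81 ± 0.13 SE, edgeR adjusted p = 2.59e-05). Polygalacturonase Jr1DG00067500, which cuts that backbone, fell too, with 36.9, 21.3 and 17.4 CPM at 11W, against 263, 262 and 311 CPM at 8W (log2 change -3.47 ± 0.24 SE, edgeR adjusted p = 2.48e-09).

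Of 83 tested sucrose and starch genes 32 rose and 31 fell (median log2 change -0.05). The cell wall invertase Jr1SG00140000, which splits sucrose outside the cell, had 793, 776 and 698 CPM at 11W, against 4380.1, 4505 and 4959 CPM at 8W (log2 change -2.61 ± 0.13 SE, edgeR adjusted p = 1.32e-13). Sucrose synthase 1 (Jr4DG00122100), which splits it inside the cell, had 3066, 3436 and 3444 CPM at 11W, against 1225, 1357 and 1412 CPM at 8W (log2 change 1.32 ± 0.09 SE, edgeR adjusted p = 3.02e-12). Neither overlapped between the stages. Per length, sucrose synthase averaged 1083 FPKM at 11W and 471 FPKM at 8W, and invertase 414 FPKM at 11W and 2738 FPKM at 8W, so that their order was reversed. Starch synthase 3 (Jr5SG00071100) fell, with 452, 534 and 541 CPM at 11W, against 1007, 1027 and 1089.9 CPM at 8W (log2 change -1.03 ± 0.09 SE, edgeR adjusted p = 2.69e-10). A run of 3 alpha-amylase genes, which degrade starch, on chromosome 4D, 6818439 to 6894104, rose, with 39.2, 46.9 and 65 CPM in sum at 11W, against 4.8, 6.37 and 2.76 CPM at 8W. Sugar transporters rose in 14 of 46 tested members and fell in 19 (median -0.03). SWEET15 (Jr3DG00093800), which in Arabidopsis seed coats releases sucrose to the embryo, had 348, 408 and 582 CPM at 11W, against 89.2, 74.6 and 80.4 CPM at 8W (log2 change 2.45 ± 0.13 SE, edgeR adjusted p = 4.39e-13). SWEET1 (Jr8DG00020200), a glucose carrier in Arabidopsis, had 162, 236 and 226 CPM at 11W, against 396, 396 and 454 CPM at 8W (log2 change -1.0 ± 0.12 SE, edgeR adjusted p = 2.34e-07).

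Hormone genes other than those of ethylene and jasmonate fell or were split. Cytokinin genes fell in 26 of 56 tested members and rose in 14, at a median log2 change of -0.27 (-0.50 when 11W replicate 1 was left out, -0.43 when 8W replicate 3 was) and summed levels of 1020.5, 1165 and 1136 CPM at 11W, against 2424, 2463 and 2289 CPM at 8W. Histidine-containing phosphotransfer proteins pass the cytokinin signal from receptors to the nucleus. Phosphotransfer protein Jr7SG00112000 had 35.2, 46.9 and 47 CPM at 11W, against 447, 405 and 372 CPM at 8W (log2 change -3.24 ± 0.20 SE, edgeR adjusted p = 2.90e-10). Phosphotransfer protein 1 (Jr1DG00172000) had 88.4, 111 and 113 CPM at 11W, against 399, 437 and 366 CPM at 8W (log2 change -1.94 ± 0.19 SE, edgeR adjusted p = 1.76e-07). The histidine kinase CKI1 (Jr4SG00090400), which acts through such proteins in Arabidopsis female gametophytes, was named after its values were seen, with 0.275, 0.525 and 0.533 CPM at 11W, against 30.8, 32.2 and 31.5 CPM at 8W (log2 change -6.11 ± 0.34 SE, edgeR adjusted p = 1.51e-13). All 3 lay lower in every 11W library.

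Auxin genes rose in 50 and fell in 47 of 127 tested members (median log2 change 0.12). GH3 synthetases, which join auxin to amino acids and so lower free auxin, held the leading falls. Jr4DG00117400 had 408, 615 and 587 CPM at 11W, against 1300.0, 1472 and 1763 CPM at 8W (log2 change -1.49 ± 0.13 SE, edgeR adjusted p = 1.12e-09). Jr1DG00009000 had 44.5, 41.1 and 51.8 CPM at 11W, against 675, 940.1 and 1049.9 CPM at 8W (log2 change -4.28 ± 0.25 SE, edgeR adjusted p = 3.81e-10). The aminotransferase Jr3DG00174800, of the family that starts auxin synthesis from tryptophan, had no read at 11W and 74.4, 85.5 and 76.9 CPM at 8W (at least 392-fold lower, edgeR adjusted p = 9.37e-12). The list's most abundant gene, an auxin-repressed protein (Jr5SG00048000), rose, with 1331, 1325 and 1249.9 CPM at 11W, against 877, 923 and 1119 CPM at 8W (log2 change 0.42 ± 0.09 SE, edgeR adjusted p = 3.43e-04). An auxin transporter-like gene of the AUX1 type (Jr1DG00297400) rose as well, with 452, 538 and 580.1 CPM at 11W, against 274, 247 and 258 CPM at 8W (log2 change 1.01 ± 0.08 SE, edgeR adjusted p = 1.90e-10). In none of these genes did the stages overlap.

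Gibberellin genes rose in 14 and fell in 13 of 33 tested members (median log2 change -0.05), and at each of 2 steps of the pathway one gene rose while another fell. For ent-kaurenoic acid oxidase, an early step, Jr7SG00015200 had no read at 11W and 231, 207 and 173 CPM at 8W (at least 1012-fold lower, edgeR adjusted p = 2.17e-15). Its relative Jr7DG00019600 rose, with 459.6, 529.6 and 660.3 CPM at 11W, against 376, 415 and 385 CPM at 8W (log2 change 0.49 ± 0.10 SE, edgeR adjusted p = 1.45e-04). Gibberellin 20-oxidase Jr8SG00018200, a later step, had no read at 11W and 12.3, 11 and 8.46 CPM at 8W (at least 52.6-fold lower, edgeR adjusted p = 9.35e-09), while Jr2DG00109700 rose as given above. Abscisic acid genes rose in 16 and fell in 18 of 44 tested members (median 0.02). A second gene annotated ABI3 (Jr2DG00137500) had 309, 190.5 and 171 CPM at 11W, against 9.17, 3.95 and 5.58 CPM at 8W (log2 change 5.16 ± 0.30 SE, edgeR adjusted p = 4.31e-10). Abscisic acid 8'-hydroxylase 1 (Jr6DG00090000), which breaks the hormone down, had 572, 856 and 857 CPM at 11W, against 502, 476 and 532 CPM at 8W (log2 change 0.6 ± 0.16 SE, edgeR adjusted p = 0.0029). The ABI5-like factor Jr3DG00039900, which acts on abscisic acid target genes, fell, with 54.4, 61.4 and 62.6 CPM at 11W, against 165, 168 and 173 CPM at 8W (log2 change -1.5 ± 0.07 SE, edgeR adjusted p = 2.13e-15).

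More MADS and homeobox factors fell than rose. MADS factors fell in 19 of 34 tested members and rose in 5, at a median log2 change of -0.56 (-0.84 without 11W replicate 3), and homeobox factors fell in 49 of 116 and rose in 36 (median -0.07). Rising MADS genes numbered 3 without 11W replicate 2 or 8W replicate 1, and 2 without 8W replicate 3. AGL11 (Jr2DG00016900), the ovule and seed coat identity factor known as SEEDSTICK, had 307, 387 and 429 CPM at 11W, against 451, 474 and 451 CPM at 8W (log2 change -0.29 ± 0.09 SE, edgeR adjusted p = 0.00694), with 11W replicate 3 only slightly under the 8W libraries and no call in a fit of the 6 libraries alone. The K-box MADS gene Jr3SG00117900 had 88, 112 and 110.1 CPM at 11W, against 259.8, 270.2 and 233 CPM at 8W (log2 change -1.3 ± 0.09 SE, edgeR adjusted p = 1.19e-11). TRANSPARENT TESTA 16 (Jr3DG00159800), the MADS factor of the innermost seed coat layer in Arabidopsis, was named after its values were seen, with 10.6, 13.8 and 13.8 CPM at 11W, against 73.9, 74.2 and 71.7 CPM at 8W (log2 change -2.52 ± 0.10 SE, edgeR adjusted p = 6.76e-16). Also named afterwards were 2 zinc finger genes annotated TRANSPARENT TESTA 1, a seed coat pigment regulator, which went opposite ways. Jr4SG00046300 had 2.27, 2.36 and 1.07 CPM at 11W, against 22.6, 25.5 and 24.5 CPM at 8W (log2 change -3.67 ± 0.25 SE, edgeR adjusted p = 5.14e-12). Jr7DG00003900 had 62.3, 9.84 and 20.2 CPM at 11W and a single read at 8W (1604-fold, 95% counting interval 288 to 63359, edgeR adjusted p = 1.09e-06). It was 783-fold higher without 11W replicate 1, its highest library, and at least 165-fold higher without 8W replicate 3, which held the single read. BEL1-like homeodomain 6 (Jr3DG00061200), of a family that shapes ovules, had 90.5, 103 and 99.5 CPM at 11W, against 371, 414 and 389 CPM at 8W (log2 change -2.0 ± 0.09 SE, edgeR adjusted p = 1.47e-15). The homeobox gene with the most reads rose: ATHB-6 (Jr2DG00132600), an abscisic acid response factor in Arabidopsis, had 404, 449.8 and 518 CPM at 11W, against 225, 244 and 233 CPM at 8W (log2 change 0.97 ± 0.09 SE, edgeR adjusted p = 2.55e-09).

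Among genes of growth machinery, those of ribosomal proteins changed mostly by small amounts. Ribosomal protein genes rose in 204 of 315 tested members and fell in 34, at a median log2 change of 0.45, and only 32 rose at least 2-fold. The 40S protein S4 (Jr5DG00128900) had 536, 434 and 447 CPM at 11W, against 308, 306 and 297 CPM at 8W (log2 change 0.64 ± 0.07 SE, edgeR adjusted p = 3.52e-08). Without 11W replicate 1, 186 of these genes rose and 37 fell, with a median of 0.33. Of 183 tested genes of DNA replication and mitosis 57 rose and 35 fell, at a median log2 change of 0.18, and their sums were 3713, 2944 and 2853 CPM at 11W, against 3635, 3680.2 and 3650.1 CPM at 8W. The direction rests on 11W replicate 1, for without it 43 rose and 50 fell and the median was -0.01. In the fit with all libraries 28 of these genes rose and 15 fell at least 2-fold. Photosynthesis genes rose in 23 and fell in 18 of 63 tested members (median 0.16), with 12 rises and 7 falls of at least 2-fold. The Rubisco-binding chaperonin subunit Jr7SG00091000, the list's most abundant gene, had 685, 523 and 460.2 CPM at 11W, against 346, 356 and 363 CPM at 8W (log2 change 0.65 ± 0.09 SE, edgeR adjusted p = 1.47e-06). The Rubisco small chain (Jr4DG00190300) had 569, 470.4 and 439 CPM at 11W, against 206, 186 and 216 CPM at 8W (log2 change 1.28 ± 0.09 SE, edgeR adjusted p = 4.76e-12). The chlorophyll a-b binding protein Jr6DG00045200, a light-harvesting antenna, fell, with 54.2, 89.1 and 76.1 CPM at 11W, against 224, 242 and 307 CPM at 8W (log2 change -1.82 ± 0.16 SE, edgeR adjusted p = 1.44e-08). None of the 3 overlapped between the stages.

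Proteases fell in 54 of 121 tested members and rose in 35 (median log2 change -0.23). Vacuolar processing enzyme Jr1SG00130600, a legumain of the class that matures seed globulins in other plants, had 537, 767 and 797 CPM at 11W, against 176, 131 and 126 CPM at 8W (log2 change 2.28 ± 0.30 SE, edgeR adjusted p = 6.31e-06). The saposin-like aspartyl protease Jr5DG00087400, the list's most abundant gene, had 779.6, 1048 and 1141 CPM at 11W, against 543, 416 and 455 CPM at 8W (log2 change 1.07 ± 0.24 SE, edgeR adjusted p = 8.62e-04). The aspartic protease Jr8SG00082300 fell, with 285, 305 and 300.0 CPM at 11W, against 853, 821 and 933 CPM at 8W (log2 change -1.55 ± 0.13 SE, edgeR adjusted p = 7.87e-10). In all 3 the libraries of the stages were separate. A run of 5 CDR1-like aspartic proteases on chromosome 6D, 35968933 to 35981427, had 0.275, 0 and 0.0667 CPM in sum at 11W, against 94.5, 86.2 and 74.1 CPM at 8W, and the 3 with enough reads to test fell. In that run Jr6DG00186700 had no read at 11W and 41.9, 41 and 35.7 CPM at 8W (at least 197-fold lower, edgeR adjusted p = 3.67e-12). The subtilase Jr1SG00178700, annotated cucumisin-like, was also among the 12 largest falls, with 0, 0.0656 and 0.2 CPM at 11W, against 39.5, 34.2 and 42.4 CPM at 8W (log2 change -8.63 ± 0.38 SE, edgeR adjusted p = 7.88e-12, or a log2 change of -9.86 without 11W replicate 3).

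The most abundant transcripts, compared by the authors' FPKM since genes differ in length, changed rank. A gene without a product name, Jr6DG00196100, led at 11W with 18143 ± 2798 FPKM, against 9423 ± 775 FPKM at 8W, where it ranked 2. Metallothionein type 3 (Jr6SG00120300), a small metal-binding protein, ranked 2 at 11W and 1 at 8W, with 16351 ± 2777 FPKM at 11W and 63653 ± 4058 FPKM at 8W (SD, n = 3 each). In counts it had 2348, 3022 and 3216 CPM at 11W, against 10106, 9631 and 11136 CPM at 8W (log2 change -1.85 ± 0.10 SE, edgeR adjusted p = 1.97e-13). Metallothionein type 2 (Jr5DG00183500) went the other way, with 1907, 1604 and 1283 CPM at 11W, against 482, 388 and 339.7 CPM at 8W (log2 change 1.99 ± 0.16 SE, edgeR adjusted p = 2.48e-09). Legumin B ranked 7 at 11W, with 3776 ± 1611 FPKM, against a mean of 54.4 FPKM at 8W. Phosphoenolpyruvate carboxylase (Jr4DG00041900), which fixes bicarbonate into organic acids, averaged 689 FPKM at 11W, against 5280.4 ± 437 FPKM at 8W, where it ranked 4. Its counts were 1530.5, 1563 and 2112 CPM at 11W, against 12814, 12680.4 and 11259 CPM at 8W (log2 change -2.82 ± 0.13 SE, edgeR adjusted p = 7.57e-15). Glyceraldehyde 3-phosphate dehydrogenase (Jr3SG00113600), a glycolytic enzyme, ranked 5 at 11W, with 4404, 4552 and 4688 CPM at 11W, against 1279.5, 1264 and 1366 CPM at 8W (log2 change 1.8 ± 0.08 SE, edgeR adjusted p = 1.92e-15). These shifts were shared by all libraries of each stage.

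The 9W libraries, taken between both stages, were set beside them. Each gene's 9W level was set against the midpoint of 11W and 8W on the log2 scale. In time 9 weeks lies nearer 8 than 11 weeks. A gene that changed at an even rate would thus also lie off that midpoint, on its 8W side. The contrast therefore does not measure how steadily genes moved. Of the 21707 genes 13961 (64.3%) were off that midpoint in edgeR's test, 7117 (32.8%) above and 6844 (31.5%) below, and 2101 (9.68%) lay at least 2-fold above and 1984 (9.14%) at least 2-fold below. Heat shock genes lay mostly below the midpoint, with 12 of 92 above and 50 below it. The run of small heat shock genes on 7D had 52.4, 58.9 and 54.3 CPM in sum at 9W, below both stages. DNA replication and mitosis genes lay mostly above it, with 112 of 183 above and 27 below the midpoint. Flavonoid and proanthocyanidin genes lay above it in 18 of 41 and below it in 5, and their sum at 9W, 2486, 2008 and 2160.4 CPM, exceeded both stages. Cytokinin genes lay above in 20 of 56 and below in 3, and the phosphotransfer gene Jr7SG00112000 had 658, 585 and 761 CPM at 9W (log2 difference 2.33 ± 0.15 SE, edgeR adjusted p = 6.54e-10). Seed storage genes summed to 905, 755 and 1081 CPM at 9W, between the levels of both stages. The GDSL gene Jr1DG00225300 had 1433, 1439 and 1269.5 CPM at 9W, so that most of its fall was seen by then (log2 difference -1.05 ± 0.10 SE, edgeR adjusted p = 1.35e-09). LHY was at 274 to 325 CPM at 9W, far above both stages, and the part of the clock in these differences at 9W was not tested.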

How the data were processed

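Pellicle RNA of 7 stages of walnut (Juglans regia) was sequenced, with 3 libraries per stage and 21 in all.
Per the labels' protocols, RNA was selected by poly(A) and depleted of ribosomal RNA, and libraries were made with a stranded kit; the protocol text speaks of 16 paired-end libraries.
The submitters' processing notes name FastQC, HISAT2, Cufflinks and DESeq2, while the genome build, annotation, counting program and strand setting are not given in the sources used.
The authors deposited 1 table with whole-number read counts and FPKM per gene, gene coordinates and product names, and the deposited FPKM equal counts per 1000 bases and 1000000 reads within a relative tolerance of 1e-09.
Overlapping or antisense genes and near-identical copies may share reads.
Of 31425 genes, 16760 were named from NR and 6732 from Swiss-Prot, and 7933 had no name.

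Counts were tested in edgeR 4.0.16 (R 4.3.3, limma 3.58.1) with a robust quasi-likelihood fit, 1 coefficient per stage, TMM factors and filterByExpr with a minimum count of 10.
The contrasts were 11W minus 8W, and 9W minus the mean of 11W and 8W, both 2-sided, with Benjamini-Hochberg adjustment over 21707 genes and a threshold of 0.05.
Levels are TMM-scaled CPM, sums are over all members of a list, and SE is the log2 change divided by the square root of F.
Where a stage held no read, a fold is a bound against a floor of 3 reads per library, and with 1 to 3 reads it has an exact Poisson 95% interval; floors and intervals cover counting error only.
Runs of genes are at least 3 members of a list with gaps up to 100000 bases.
The fit was also run on simulated counts drawn from its own means and spreads, with few genes changed. As 65.6% of genes were called in the data, that run cannot show how the TMM factors behave here.

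The members, lists and tests were chosen with earlier results of these data known.
Genes named are the 12 largest rises and 12 largest falls (named product, at least 10 CPM in the higher stage, no overlap), leading called members and the most abundant member of each list by mean CPM, clock genes, and the 10 highest by FPKM, of which part are given, picked with their values known; others are marked as chosen after their values were seen.
Alternatives were RLE, upper-quartile or no factors, the tool DESeq2 1.42.0, testing unfiltered genes or those with 1 CPM in 3 libraries, the 6 libraries alone, a replicate block and leaving out each library. Fits of fewer libraries repeated the filter on reads, so the genes tested differed.
Replicates within a stage differed by more than sampling noise (chi-square per degree of freedom 3.13 to 28.1), so none were merged.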

Additional observations from a re-analysis of the deposited data

How the results depend on the processing

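No gene called in both the reported fit and an alternative changed direction (all tested genes, both contrasts, all settings run), and of 125 named genes 121 kept direction and call under every setting run. The share of rising genes among those called, 52.7%, was 49.7% with RLE factors, 47.1% with upper-quartile factors, 49.8% in DESeq2 and 44.4% with library sizes alone (6416 rose and 8037 fell), which moved the median log2 change of all genes to -0.09, against 0.03. The replicate block gave 7471 rising and 6709 falling genes. Deviations of same-numbered libraries in different stages correlated at -0.04 to 0.06. With so few libraries a stage, these values cannot show whether the replicate numbers pair the libraries. Whether same-numbered libraries shared a tree or a sampling day was not tested, since the labels do not give it. Leaving out single libraries gave 6972 to 7248 rising and 6313 to 6779 falling genes. Counts that moved by over 1.5 times were small. Falling late embryogenesis genes numbered 2 with RLE, upper-quartile or no factors and in DESeq2, 0 in the fit of 6 libraries (where Lea14 lost its call), and 0 to 2 without single libraries. Falling growth-regulating factors numbered 2 with RLE, upper-quartile or no factors and with the replicate block, 0 in the fit of 6 libraries, and 0 to 2 without single libraries. Rising MADS genes numbered 3 in the fit of 6 libraries and 2 to 4 without single libraries, and rising gibberellin genes 9 in the fit of 6 libraries.

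List medians near 0 changed sign. The glycosyl and acyl transfer median was -0.029 with upper-quartile factors, -0.068 with library sizes alone, -0.052 with the 1 CPM filter and -0.34 in the fit of 6 libraries. That of abscisic acid was -0.024 with RLE factors, -0.024 in DESeq2, -0.059 with upper-quartile factors, -0.098 with library sizes alone and -0.086 in the fit of 6 libraries. With the 1 CPM filter gibberellin gave 0.12 and auxin -0.040, and bHLH gave 0.081 without a filter and 0.0016 in the fit of 6 libraries. Without single libraries the medians ran over -0.0049 to 0.22 for flavonoid, -0.012 to 0.069 for glycosyl and acyl transfer, -0.12 to 0.0069 for cellulose, -0.011 to 0.25 for DNA replication, -0.26 to 0.048 for sugar transporter, -0.0040 to 0.13 for auxin, -0.021 to 0.25 for gibberellin, -0.036 to 0.066 for abscisic acid, -0.054 to 0.033 for antioxidant and -0.059 to 0.088 for bHLH genes. Further medians near 0 ran over -0.17 to -0.062 for phenylpropanoid, -0.15 to -0.026 for wall-loosening, 0.062 to 0.24 for photosynthesis, -0.13 to -0.013 for sucrose and starch, 0.14 to 0.30 for NAC and -0.12 to -0.054 for homeobox genes. In the fit of 6 libraries the median was -0.59 for cytokinin, -0.57 for cutin, -0.98 for MADS, -1.33 for laccase and peroxidase and 0.30 for aquaporin genes. With the 1 CPM filter it was -0.48 for cutin and 0.40 for aquaporin genes, and proteases gave -0.34 with library sizes alone. Without a filter, which adds genes of few reads, it was -0.18 for laccase and peroxidase, -0.067 for cutin, -0.72 for lipid transfer, -0.30 for GDSL, 1.36 for WRKY and 1.11 for aquaporin genes, and 0 for pectin and jasmonate genes. The causes were not tested. With 3 libraries a stage from trees and hours that the labels do not give, tests cover the spread between these libraries, and genes of few reads carry wide intervals.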
